A study of Mus musculus with 4 samples.

Results

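The 10 genes described here encode costimulatory and inhibitory receptors of lymphocytes: Btla, Pdcd1, Ctla4, Icos, Cd28, Cd160, Lag3, Tigit, Havcr2 and Cd96. They were taken by symbol from a count table of 22865 genes, and 10 of 10 were found. The RNA came from γδ T cells sorted from lungs of 10-week-old female C57Bl/6 mice, with 2 libraries from Aire-deficient (Aire-/-) mice and 2 from wild-type (Aire+/+) mice. Each library held 500 viable cells that stained for CD45 and TCRγδ but not for TCRβ, CD27 or the chains Vγ1, 2, 4 and 5, and the labels give no treatment. The labels do not name the Aire allele or say whether libraries came from separate or pooled animals, so a p-value here reflects how far the 4 libraries scatter, and that scatter may be technical.

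A T cell reads its antigen receptor together with a second layer of signals from receptors such as these. Costimulatory receptors (CD28, ICOS) recruit phosphoinositide 3-kinase and strengthen the response. Inhibitory receptors (PD-1, CTLA-4, BTLA, LAG-3, TIGIT) recruit phosphatases or compete for ligands and dampen it. BTLA is also a well known surface receptor of B cells, and PD-1 and ICOS are found on mouse γδ T cells that make interleukin-17.

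Aire itself had 0 counts in each of the 4 libraries, so it cannot check the genotype labels. Total counts per library ran from 1106891 to 1265239. The 4 CD3 chains of the T cell receptor complex (Cd3d, Cd3e, Cd3g and Cd247) were present throughout, with summed counts of 1522 and 1595 in the Aire-/- libraries against 1242 and 1791 in the Aire+/+ libraries. The B cell genes Ms4a1 (CD20), Cd79a and Cd79b were also abundant, although the sort required a γδ T cell receptor. Their summed counts were 1499 and 1086 in the Aire-/- libraries, against 2583 and 1564 in the Aire+/+ pair. Aire+/+ replicate 1 therefore stood apart, with 2.08 B cell gene counts per CD3 chain count where the other 3 libraries had 0.681 to 0.985. In such bulk samples, fewer cells of a type and less RNA per cell cannot be told apart.

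Pdcd1 and Icos were the main receptor transcripts of these cells, Cd96, Btla and Ctla4 were intermediate, and the other 5 were low. All 10 receptors had at least 1 count in every library, and 6 had at least 10 in every library, the minimum taken here for expression, which 35.5% of the genes in the table reached. These 6 were Pdcd1, Icos, Cd96, Btla, Ctla4 and Cd28. Havcr2 missed that minimum through Aire-/- replicate 2 alone, where it had 9 counts. Levels between genes are compared per length, as CPM (counts scaled by library size and edgeR's TMM factors) divided by the kilobases of the longest transcript. On that scale Pdcd1 averaged 377 ± 94.4 and Icos 214 ± 61.2 CPM per kilobase (SD, n = 4 libraries). Cd96 averaged 62.2 ± 15.4, Btla 52.2 ± 22.5 and Ctla4 24.1 ± 13.4 CPM per kilobase. Havcr2 followed at 9.20 ± 4.22, Cd28 at 4.90 ± 1.44, Tigit at 4.79 ± 3.20, Cd160 at 2.78 ± 0.62 and Lag3 at 2.50 ± 1.77 CPM per kilobase. The library ranges of neighbours in this order overlapped except between Icos and Cd96 and between Ctla4 and Havcr2. With the mean length of a gene's transcripts in place of the longest, Icos moved to 343, Btla to 95.2, Ctla4 to 43.1, Cd28 to 9.42 and Lag3 to 4.12 CPM per kilobase, and Btla and Cd96, and likewise Lag3 and Cd160, changed places.

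**Figure D1:**
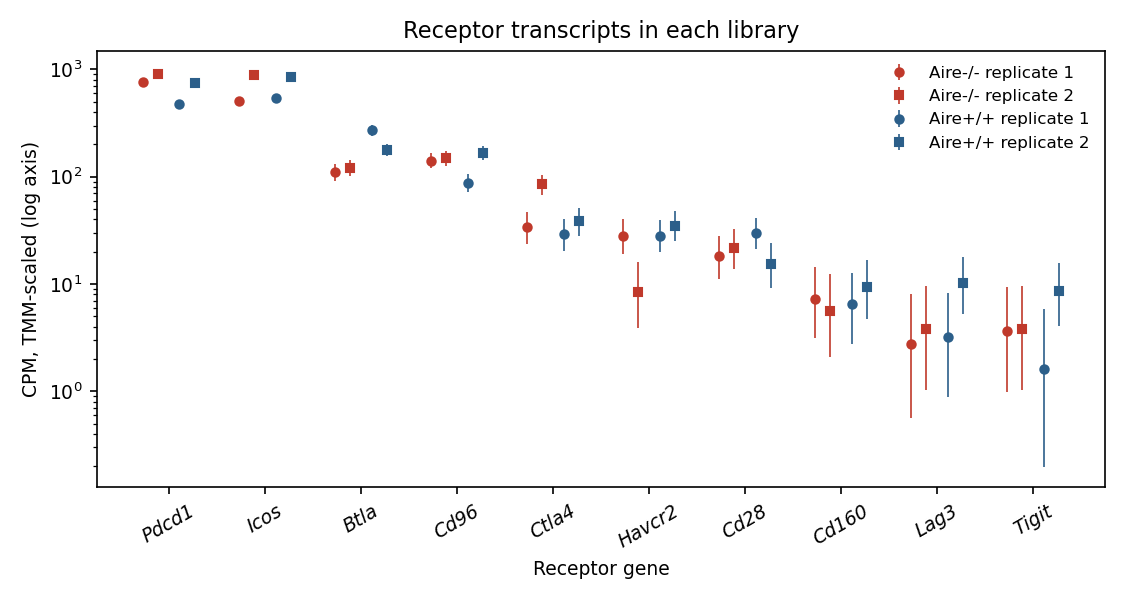
CPM of the 10 receptors in each of the 4 libraries on a log axis, with bars that are exact Poisson 95% intervals and cover counting error only; the values are not divided by length, so they compare libraries within a gene. Both Aire-/- points for Btla lie below both Aire+/+ points, at 111 and 121 against 270 and 178 CPM, and the bars of Lag3, Tigit and Cd160 are wide at 2 to 12 counts.

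The question of the design is how loss of Aire alters these peripheral cells. Of the 10 receptors 7 passed the filter on low counts and were tested in a fit over 9783 genes, and none of the 7 was called higher or lower in Aire-/- libraries by edgeR's quasi-likelihood test at an adjusted p under 0.05, a threshold that 0.0204% of all genes passed. DESeq2's Wald test and limma-voom also called 0 of the 7. At an unadjusted p under 0.05 edgeR had 1 of the 7, Btla in the lower direction, where 5.57% of all genes tested passed and 2.77% passed as lower. DESeq2 had 1 and limma-voom 2 of the 7 at that p, where 2.32% and 5.09% of all genes tested passed. The genotypes' CPM did not overlap for 2 of the 7, Btla and Pdcd1, and for 34.4% of all genes tested.

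Cd28, the classical costimulatory receptor for CD80 and CD86, had 20 and 23 counts in the Aire-/- libraries, against 37 and 18 in the Aire+/+ pair. The Aire-/- values lay between the Aire+/+ values, and the log2 fold change was -0.19 (SE 0.46, edgeR adjusted p = 0.99). Icos, the inducible costimulator that sustains cytokine production in activated T cells, had 558 and 939 counts in the Aire-/- libraries, against 666 and 989 in the Aire+/+ pair. Replicates of each genotype differed more than the genotypes did. Its mean was 698 ± 266 CPM in Aire-/- against 692 ± 218 CPM in Aire+/+ libraries (± SD, n = 2 each), a log2 fold change of 0.01 (SE 0.27, edgeR adjusted p = 0.99).

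Ctla4, the inhibitory receptor that competes with CD28 for its ligands, had 37 and 90 counts in the Aire-/- libraries, against 36 and 45 in the Aire+/+ pair. Only Aire-/- replicate 2 was high, and the other 3 libraries were close together. The fitted log2 fold change of 0.81 (SE 0.42, edgeR adjusted p = 0.91) rested on that library: it was -0.0004 without it and 1.33 without Aire-/- replicate 1. Pdcd1 encodes PD-1, the inhibitory receptor for PD-L1 and PD-L2. It had 832 and 971 counts in the Aire-/- libraries, against 591 and 882 in the Aire+/+ pair. After scaling, both Aire-/- libraries lay above both Aire+/+ libraries, at 760 and 916 against 478 and 755 CPM, as did 17.1% of all genes tested. The gap between the nearest libraries was small, and the log2 fold change of 0.44 (SE 0.22, edgeR adjusted p = 0.91) became 0.14 without Aire+/+ replicate 1 and 0.81 without Aire+/+ replicate 2.

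Cd28, Ctla4 and Icos are neighbours on chromosome 1 (GRCm38), in that order on the plus strand within 283.52 kb. Cd28 spans 60716800 to 60773359, Ctla4 60887000 to 60915832 and Icos 60977927 to 61000320. Icos averaged 214 and Cd28 4.90 CPM per kilobase, with library ranges of 157 to 273 and 3.54 to 6.88 (343 and 9.42 with mean transcript lengths). Pdcd1 lies elsewhere on the same chromosome (94038305 to 94052553, minus strand).

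Btla and Cd160 both bind HVEM, the product of Tnfrsf14. Btla had 121 and 128 counts in the Aire-/- libraries, against 334 and 208 in the Aire+/+ pair. The Aire-/- values were close together and lay below both Aire+/+ values, an arrangement that 17.3% of all genes tested shared. Its mean was 116 ± 7.20 CPM in Aire-/- against 224 ± 65.0 CPM in Aire+/+ libraries (± SD, n = 2 each), 1.94-fold lower in Aire-/- libraries. The log2 fold change was -0.95 (SE 0.25), with an unadjusted p of 0.0021 and an adjusted p of 0.67 over all genes by edgeR's quasi-likelihood test. Without Aire+/+ replicate 2 the log2 fold change was -1.23 and Btla was called lower (edgeR adjusted p = 0.012), and without Aire+/+ replicate 1, the library rich in B cell transcripts, it was -0.63 (adjusted p = 1). With no filter beyond a count above 0, which brings 20402 genes into the fit, Btla was also called lower (-0.95, edgeR adjusted p = 0.047). Over all 12 alternatives the adjusted p ran from 0.0119 to 1. Cd160, a receptor of natural killer and cytotoxic cells, had 8 and 6 counts in the Aire-/- libraries, against 8 and 11 in the Aire+/+ pair. It was below the filter, and in the unfiltered fit its log2 fold change was -0.28 (edgeR adjusted p = 0.98). A protein-coding gene, Pdzk1, overlaps Cd160 on the opposite strand, and reads of these genes cannot be told apart unless strand was used in counting.

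Cd96 and Tigit are receptors for the nectin-like protein PVR, and both compete with the activating receptor CD226 for it. Cd96 had 154 and 157 counts in the Aire-/- libraries, against 109 and 195 in the Aire+/+ pair. The Aire-/- libraries lay between the Aire+/+ libraries, and the log2 fold change of 0.18 (SE 0.28, edgeR adjusted p = 0.98) turned to -0.22 without Aire+/+ replicate 1 and was 0.71 without Aire+/+ replicate 2. Tigit had 4 and 4 counts in the Aire-/- libraries, against 2 and 10 in the Aire+/+ pair. Also below the filter, it had a log2 fold change of -0.42 in the unfiltered fit (edgeR adjusted p = 0.98). Tigit, Btla and Cd96 lie within 2.47 Mb of each other on chromosome 16 (GRCm38). Tigit spans 43648867 to 43664146, Btla 45224315 to 45257670 and Cd96 46035657 to 46120251. In GENCODE M21 no other gene overlaps these 3, while a pseudogene (Rpl18-ps1) overlaps Ctla4 and an unverified transcript (Gm37039) overlaps Icos.

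The promoters of Btla and Cd96 are shown beside those of the B cell gene Cd79a and the CD3 chain Cd3e. Of the 10 receptors, Btla kept closest to the summed B cell genes and Cd96 to the summed CD3 chains (described further on). Without Aire+/+ replicate 1 Btla was nearer to the CD3 chains. In the promoter table used here, from RefSeq (GRCm38.p6), 7 of the 10 receptors were matched. Each line is the 250 bases before the RefSeq start site, 5′ to 3′ on the gene's strand. GENCODE M21 places the start of Cd79a at 24897381, inside its window, so the GGAAG match of that window lies within the GENCODE gene. Capitals mark matches, on either strand, to the ETS core GGAAG or the E-box CAGNTG, which occur in 64.1% and 44.8% of the 32851 promoter windows of this length.
Btla, chr16:45224087-45224336, plus strand: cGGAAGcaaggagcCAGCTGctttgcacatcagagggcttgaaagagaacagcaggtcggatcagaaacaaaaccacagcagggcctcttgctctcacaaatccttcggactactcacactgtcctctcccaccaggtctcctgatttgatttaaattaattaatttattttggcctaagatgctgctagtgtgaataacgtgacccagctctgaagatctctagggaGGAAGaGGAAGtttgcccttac
Cd79a, chr7:24897247-24897496, plus strand: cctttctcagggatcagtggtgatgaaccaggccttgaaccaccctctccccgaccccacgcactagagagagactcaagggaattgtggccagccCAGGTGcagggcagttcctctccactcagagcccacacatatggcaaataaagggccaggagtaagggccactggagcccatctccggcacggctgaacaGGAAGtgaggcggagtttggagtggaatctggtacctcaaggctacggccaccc
Cd96, chr16:46120249-46120498, minus strand: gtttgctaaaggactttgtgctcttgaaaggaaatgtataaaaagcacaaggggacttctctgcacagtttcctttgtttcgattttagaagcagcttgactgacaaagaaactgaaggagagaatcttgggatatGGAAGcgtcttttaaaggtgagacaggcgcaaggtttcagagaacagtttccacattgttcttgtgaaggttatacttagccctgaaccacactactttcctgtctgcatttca
Cd3e, chr9:45009612-45009861, minus strand: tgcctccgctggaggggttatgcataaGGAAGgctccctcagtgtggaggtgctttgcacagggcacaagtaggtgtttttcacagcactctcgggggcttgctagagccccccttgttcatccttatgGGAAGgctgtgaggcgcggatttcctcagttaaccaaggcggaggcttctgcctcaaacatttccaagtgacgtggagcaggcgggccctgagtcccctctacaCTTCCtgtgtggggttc
The Btla window held 3 ETS cores and 1 E-box, that of Cd79a 1 and 1, that of Cd96 1 and 0, and that of Cd3e 3 and 0. The octamer ATGCAAAT, the EBF palindrome and the ROR element AGGTCA, searched on both strands and found in 1.6%, 0.779% and 14% of all windows, had 0 matches in these 4. The AGGTCA motif had 1 match in the window of Pdcd1 and 1 in that of Havcr2.

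Lag3, the inhibitory receptor for class II molecules, had 3 and 4 counts in the Aire-/- libraries, against 4 and 12 in the Aire+/+ pair, and only Aire+/+ replicate 2 was high. In the unfiltered fit its log2 fold change was -1.01 (edgeR adjusted p = 0.95). Havcr2 encodes TIM-3, a receptor of exhausted T cells that macrophages and dendritic cells also carry. It had 31 and 9 counts in the Aire-/- libraries, against 35 and 41 in the Aire+/+ pair. Aire-/- replicate 2 alone was low, and Aire-/- replicate 1 was level with Aire+/+ replicate 1 at 28.3 CPM each. The log2 fold change of -0.77 (SE 0.50, edgeR adjusted p = 0.94) was -0.16 without that low library and -1.88 without Aire-/- replicate 1. The 12 macrophage, monocyte and dendritic cell markers found in the table summed to 85.9 and 111 CPM in the Aire-/- libraries, against 224 and 66.7 CPM in the Aire+/+ pair. None was at 0 in every library. Lyz2 had 1 and 61 counts in the Aire-/- libraries, against 186 and 2 in the Aire+/+ pair, and Cd14 had 0 and 0 against 32 and 11. Xcr1 went the other way, with 45 and 27 counts against 19 and 26 (0.82, edgeR adjusted p = 0.91). Of the 4 such markers tested 1 lay above 0 and 3 below, where 49.1% of all genes tested lay below. The part of myeloid cells in the Havcr2 values was not tested.

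**Figure D2:**
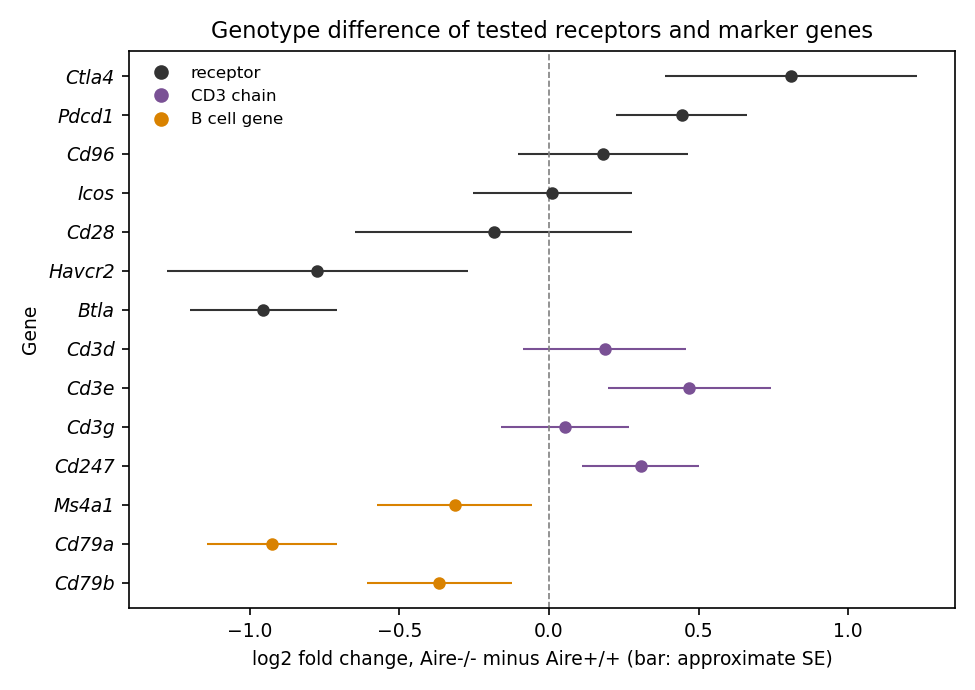
Log2 fold change of Aire-/- minus Aire+/+ from the edgeR fit for the 7 tested receptors, the 4 CD3 chains and 3 B cell genes, with bars of 1 approximate SE. Btla at -0.95 lies beside Cd79a at -0.93, but the other B cell genes, Cd79b at -0.37 and Ms4a1 at -0.32, lie nearer to 0. The CD3 chains lie between 0.05 and 0.47, and no gene shown passed over all genes.

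Whether Btla followed the T cell or the B cell transcripts was examined by its ratio to each marker sum, which no library scaling touches. Per 100 CD3 chain counts there were 7.95 and 8.03 Btla counts in the Aire-/- libraries, against 26.9 and 11.6 in the Aire+/+ pair, a 3.38-fold range. Per 100 counts of Ms4a1, Cd79a and Cd79b there were 8.07 and 11.8 Btla counts in the Aire-/- libraries, against 12.9 and 13.3 in the Aire+/+ pair, a 1.65-fold range. Over the 4 libraries Btla kept closer to the B cell genes. The SD of its log2 ratio was 0.83 to the CD3 chains and 0.33 to the B cell genes, where counting error alone gives 0.12 for each. The order depended on Aire+/+ replicate 1: over the other 3 libraries the SDs were 0.31 to the CD3 chains and 0.38 to the B cell genes. With 4 libraries no correlation is given, and 2 libraries against 2 allow no exact permutation test at the usual threshold.

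Both Aire-/- libraries lay below both Aire+/+ libraries in each ratio, an arrangement that 17.3% of all genes tested had in CPM. No share over all genes was computed for the ratios. Cd160, Lag3 and Havcr2, at lower counts, had the same arrangement in the ratio to the CD3 chains. Their log2 differences were -0.50, -1.06 and -1.24. For Btla the ratio to the CD3 chains was 2.21-fold lower in Aire-/- libraries, a log2 difference of -1.15. The ratio of Btla to the B cell genes was 1.34-fold lower, a log2 difference of -0.43. Replicates of 1 genotype differed by a pooled SD of 0.61 in the first ratio and 0.27 in the second. Leaving out Aire+/+ replicate 1 gave -0.54 for the first difference, and leaving out Aire+/+ replicate 2 gave -1.75. Leaving out Aire-/- replicate 1 gave -0.15 for the second, and leaving out Aire-/- replicate 2 gave -0.70. The second also depended on the B cell gene chosen. Per 100 Cd79a counts there were 32.0 and 43.8 Btla counts in the Aire-/- libraries, against 39.0 and 36.6 in the Aire+/+ pair, a log2 difference of -0.01. Per 100 Ms4a1 counts there were 23.7 and 30.7 in the Aire-/- libraries, against 38.7 and 48.0 in the Aire+/+ pair, a log2 difference of -0.68.

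**Figure D3:**
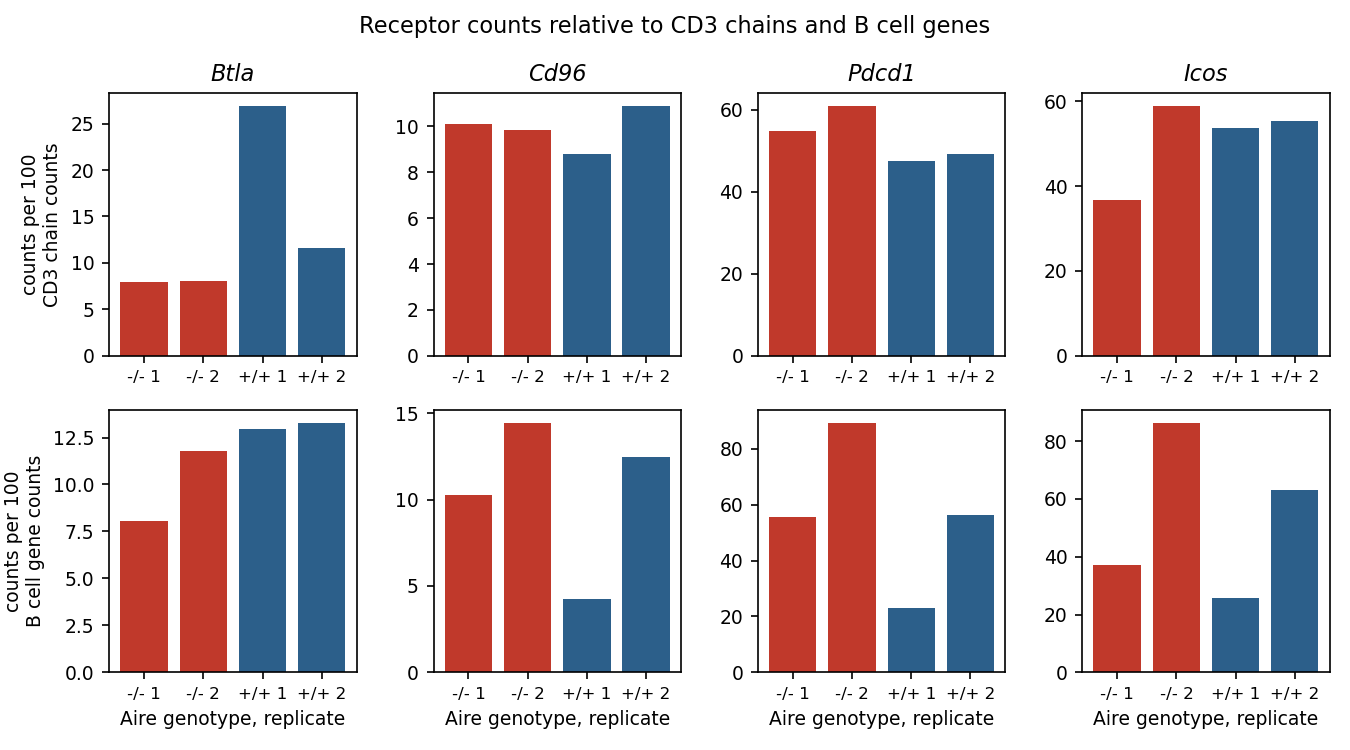
Counts of Btla, Cd96, Pdcd1 and Icos per 100 CD3 chain counts (top) and per 100 counts of Ms4a1, Cd79a and Cd79b (bottom) in each library, with bars from 0. Btla per CD3 chain count peaks in Aire+/+ replicate 1 at 26.9, while Cd96 stays between 8.78 and 10.9 over the 4 libraries and has its lowest value per 100 B cell gene counts, 4.22, in that library.

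Over 4 libraries the SD of the log2 ratio of Btla to each of the 15 B cell genes listed, the 3 above and 12 more, was smaller than to any of the 4 CD3 chains. The nearest were Faim3, the IgM Fc receptor now named Fcmr, with an SD of 0.14, Fcer2a, the low-affinity IgE receptor CD23, with 0.16, and Cd79a with 0.19. The CD3 chains stood at 0.77 for Cd3g, 0.83 for Cd247 and 0.94 for Cd3d and Cd3e. Without Aire+/+ replicate 1 the count of B cell genes nearer than every CD3 chain was 3 of 15, and without any other library it was 15 of 15. Btla was lower relative to each of the 4 CD3 chains, and relative to 10 of the 15 B cell genes, in both Aire-/- libraries. These ratios all share the Btla counts, so they are not separate observations. In CPM 17.3% of all genes tested had both Aire-/- libraries below both Aire+/+ libraries. The 5 tested genes of the whole table whose log2 CPM kept nearest to that of Btla were Mpi, Manba, Slc25a1, Cecr2 and Hs3st1, with SDs of the difference of 0.05 to 0.10 over 4 libraries, and Mpi and Slc25a1 had only 6 to 23 counts per library. By that measure 0.664% of tested genes lay nearer to Btla than Cd79a, 11.3% nearer than Ms4a1 and 12.4% nearer than Cd79b. For the 12 further B cell genes this share ran from 0.184% for Faim3 to 31.4% for Cd22. For the CD3 chains it ran from 67.9% for Cd3g to 86.9% for Cd3d. Which cells in the libraries carried Btla was not tested.

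**Figure D4:**
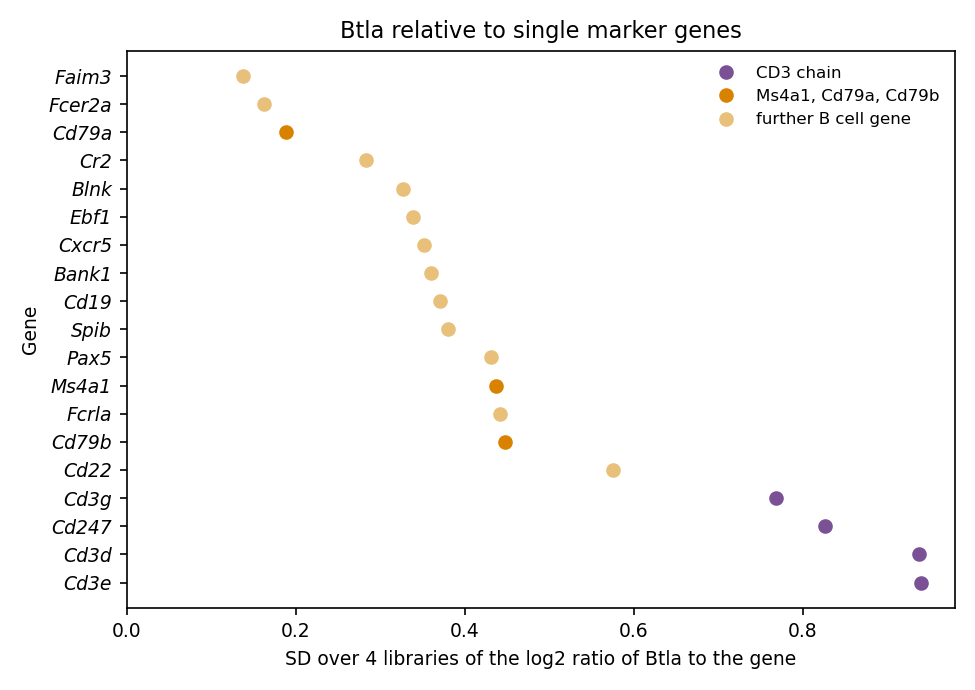
SD over the 4 libraries of the log2 ratio of Btla counts to the counts of single genes, for 4 CD3 chains and 15 B cell genes. The B cell genes run from 0.14 for Faim3 to 0.58 for Cd22, and the CD3 chains from 0.77 to 0.94, and without Aire+/+ replicate 1 only 3 of the 15 B cell genes are nearer than every CD3 chain.

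The other abundant receptors behaved otherwise. Cd96 kept to the CD3 chains within a 1.24-fold range, with 10.1 and 9.84 counts per 100 CD3 chain counts in the Aire-/- libraries, against 8.78 and 10.9 in the Aire+/+ pair. The SD of its log2 ratio was 0.13, close to the 0.12 of counting error, against 0.80 to the B cell genes. Pdcd1 had 54.7 and 60.9 counts per 100 CD3 chain counts in the Aire-/- libraries, against 47.6 and 49.2 in the Aire+/+ pair, so both Aire-/- libraries stayed higher, by 1.19-fold on average. Its SD was 0.16 to the CD3 chains and 0.82 to the B cell genes. Icos had 36.7 and 58.9 counts per 100 CD3 chain counts in the Aire-/- libraries, against 53.6 and 55.2 in the Aire+/+ pair, and Aire-/- replicate 1 alone was low. Its SD was 0.31 to the CD3 chains and 0.78 to the B cell genes, and Ctla4 had 0.57 and 1.07. Of the 6 receptors with at least 10 counts in every library, 4 kept nearer to the CD3 chains and 2, Btla and Cd28, nearer to the B cell genes. For Cd28 the SDs were 0.67 and 0.38, with 0.30 from counting error at 18 to 37 counts, and without Aire+/+ replicate 1 they were 0.27 to the CD3 chains and 0.46 to the B cell genes. Cd96, Pdcd1 and Icos remained nearer to the CD3 chains without Aire+/+ replicate 1, at 0.08, 0.15 and 0.37 against 0.25, 0.39 and 0.61 to the B cell genes.

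**Figure D5:**
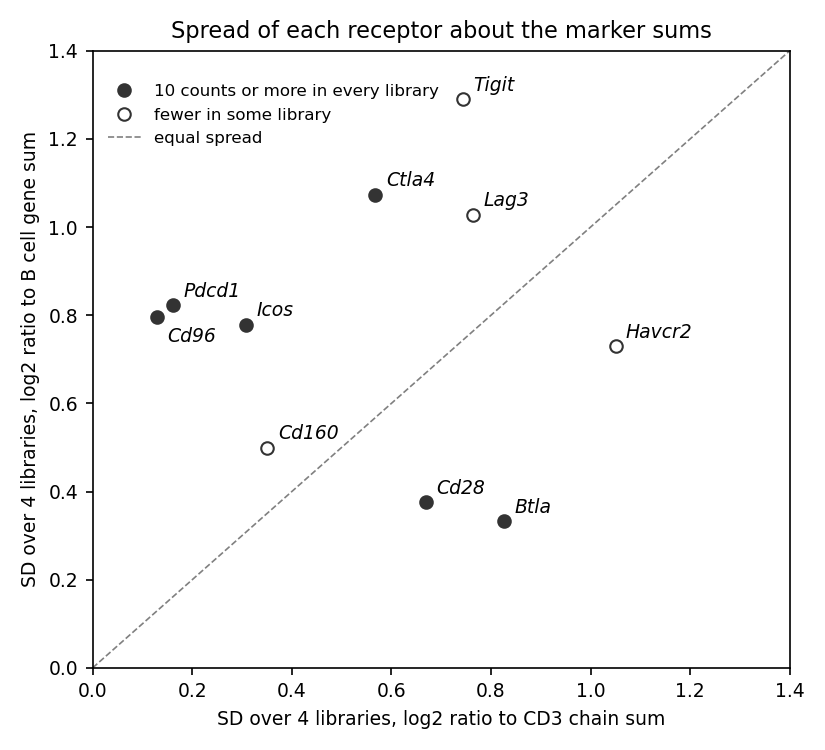
SD over 4 libraries of each receptor's log2 ratio to the CD3 chain sum (x) and to the B cell gene sum (y); filled points had at least 10 counts in every library. Btla (0.83, 0.33) and Cd28 (0.67, 0.38) lie below the line of equal spread and Cd96 (0.13, 0.80), Pdcd1 and Icos far above it.

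Ligands of the receptors mostly had lower values in Aire-/- libraries, without passing the test. Of 18 ligand genes 12 were tested and 11 lay below 0, as did 49.1% of all genes tested, and their median log2 fold change was -0.47, where all genes tested had 0.01. None was called over all genes by edgeR, DESeq2 or limma-voom, and 4 had an unadjusted p under 0.05 by edgeR, with 4 also by each of the other tools. Of all genes tested 5.57% passed that p by edgeR, 2.32% by DESeq2 and 5.09% by limma-voom. The 4 by edgeR were the class II genes H2-Ab1 (-0.84), H2-Aa (-0.76) and H2-Eb1 (-0.68), which LAG-3 binds, and Lgals3 (-0.92), the lectin galectin-3, with adjusted p of 0.67 to 0.83 by edgeR. B cells also express class II genes, and all 15 B cell genes lay below 0 in the same fit, with medians of -0.37 for the 3 first named and -0.50 for the other 12. Their part in the ligand values was not tested. Cd274, which encodes PD-L1, had 74 and 106 counts in the Aire-/- libraries, against 91 and 107 in the Aire+/+ pair (0.02, adjusted p = 0.99). Tnfrsf14, the shared ligand of BTLA and CD160, had 11 and 17 counts in the Aire-/- libraries, against 22 and 26 in the Aire+/+ pair (-0.62, edgeR adjusted p = 0.95).

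Other costimulatory and inhibitory receptors were evenly divided. Of 24 such genes 20 were tested, 11 lay above 0 and 9 below, and the median log2 fold change was 0.14. None was called over all genes by any of the 3 tools, and 5 of the 20 (25%) had an unadjusted p under 0.05 by edgeR, 2 (10%) by DESeq2 and 4 (20%) by limma-voom, against 5.57%, 2.32% and 5.09% of all genes tested. Cd226, the activating receptor that shares PVR with CD96 and TIGIT, had 208 and 219 counts in the Aire-/- libraries, against 114 and 175 in the Aire+/+ pair, a log2 fold change of 0.71 (SE 0.25, edgeR adjusted p = 0.89). Both Aire-/- libraries were above both Aire+/+ libraries, as for 17.1% of all genes tested. Among the 20 tested here 5 lay above in this way and 6 below, where 17.1% and 17.3% of all genes tested did. In either direction 34.4% of all genes tested had no overlap. Cd5, an inhibitory receptor that tracks T cell receptor signal strength, had 28 and 27 counts in the Aire-/- libraries, against 20 and 8 in the Aire+/+ pair (1.13, edgeR adjusted p = 0.89). Cd2, an adhesion receptor of T cells that binds CD48, had 107 and 78 counts in the Aire-/- libraries, against 224 and 127 in the Aire+/+ pair (-0.76), and Klrc1, the NKG2A chain, had 21 and 16 against 47 and 32 counts (-0.93), with adjusted p of 0.89 for both. Of 18 signalling partners of the receptors 17 were tested. Of these 13 lay above 0 and 4 below, where 49.1% of all genes tested lay below. Their median was 0.12, and none was called by any of the 3 tools. At an unadjusted p under 0.05 there were 0 by edgeR, 0 by DESeq2 and 1 by limma-voom (5.88%), close to its 5.09% of all genes tested. Among those of smallest p were Pik3r1, the regulatory subunit through which CD28 and ICOS recruit phosphoinositide 3-kinase (0.41), Vav1 (0.69), an exchange factor, and Ptpn6 (0.31), the phosphatase SHP-1 of inhibitory receptors, all with adjusted p of 0.91 to 0.94.

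Markers of other cells that carry these receptors differed in level. Among the markers of αβ and regulatory T cells Ccr7, a homing receptor that B cells share, had 733 and 482 counts in the Aire-/- libraries, against 1527 and 750 in the Aire+/+ pair. Cd4 had 2 to 5, Cd8b1 1 to 3 and Cd8a 25 to 35 counts per library. Foxp3, the factor of regulatory T cells, which are rich in CTLA-4, ICOS and TIGIT, had 17 and 7 counts in the Aire-/- libraries, against 9 and 12 in the Aire+/+ pair. At these low counts its log2 fold change was 0.34 (SE 0.67, edgeR adjusted p = 0.99). The 9 natural killer cell markers summed to 85.9 and 237 CPM in the Aire-/- libraries, against 255 and 179 CPM in the Aire+/+ pair. Klra8 and Klra4 were at 0 in all 4 libraries, and Ncr1 had 2 to 21 counts. Gzma had 48 to 202, Klre1 5 to 49, Itga2 7 to 23 and Klrb1c 4 to 17 counts per library. The 7 markers of type 2 innate lymphoid cells, which also carry ICOS, summed to 102 and 143 CPM in the Aire-/- libraries, against 94.5 and 122 CPM in the Aire+/+ pair. Il13 was at 0 in all 4 libraries, while Areg had 31 to 72 and Gata3 21 to 44 counts per library. The part of any of these cells in the receptor values was not tested.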

How the data were processed

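RNA of 500 sorted lung γδ T cells per library was sequenced by Smart-Seq2, which copies whole transcripts from few cells, per the labels' protocols, with 2 libraries per genotype. The authors deposited whole-number read counts per gene symbol, not normalized, in 1 column per library, per the file headers. TopHat2 2.0.10, Cufflinks 2.2.1 and mm10 are named, without role, per the submitters' processing notes. The counting tool, annotation, strand and duplicate handling are not stated in the labels or header, and intervals cover counting error only.

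Counts were fitted with edgeR 4.0.16 in R 4.3.3 (TMM, filterByExpr with minimum count 10 and total 15, quasi-likelihood F test on genotype, Benjamini-Hochberg over 9783 genes, adjusted p under 0.05). An SE is the absolute log2 fold change over the square root of F, an approximation. Log2 fold changes are Aire-/- minus Aire+/+. limma 3.58.1 and DESeq2 1.42.0 served as alternatives. The edgeR step was tested on simulated data (5 sets). Lengths and coordinates came from GENCODE M21 (GRCm38, the assembly of mm10) and promoters from RefSeq. Members, gene lists and tests were chosen with earlier results of these data known. Named genes are the 10 receptors, the CD3 chains, Ms4a1, Cd79a and Cd79b, up to 4 genes of smallest p per list and the 5 nearest to Btla; Cd274, Tnfrsf14, Foxp3, Cd4, Cd8a, Cd8b1, Ccr7, Lyz2, Cd14, Ncr1, Klra8, Klra4, Il13, Cd22, Nr4a1 and Klrg1 were named after their values were seen. The replicate numbers of the titles do not pair the samples, as far as the labels say. Trac, Trbc1, Trbc2 and Siglecf were not analysed here, and some listed genes are not reported here.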

Additional observations from a re-analysis of the deposited data

How the results depend on the processing

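Receptors called higher numbered 0 under every alternative run, and receptors called lower 0 except for 1, Btla, with no filter beyond a count above 0, and 0 to 1 when each library was left out in turn. Over the whole table genes called higher numbered 21 with no filter, 2 with the replicate number as a block and 5 to 21 leaving out each library, against 0, and genes called lower 26, 4 and 6 to 42 in the same order and 1 by limma-voom, against 2. Where 1 library was left out, the remaining one of its genotype is taken to vary as the other pair does. Receptors with 1 count in every library numbered 10, against 6 with 10 counts. The Btla to B cell log2 ratio difference was -0.012 with Cd79a alone, against -0.43. Of the receptors, Icos turned sign with upper-quartile factors (-0.031), by limma-voom (-0.0053) and under the replicate block (-0.0058), and leaving out each library ranged from -0.443 to 0.372. The same ranges were -0.0004 to 1.3333 for Ctla4, -0.583 to 0.365 for Cd28, -0.217 to 0.709 for Cd96 and, without a change of sign, -1.88 to -0.162 for Havcr2. The cause was not tested. The replicate block changed no call of a receptor, with Btla at -0.93 (adjusted p = 0.475, edgeR). Samples sharing a number deviated with a correlation of -0.077 over 9783 genes. A single such value cannot tell whether they were handled together. Leaving out Rn45s, an alternative chosen after seeing the data, changed no call. Cd160, Lag3 and Tigit had 2 to 12 counts per library and were fitted only without the filter.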

Other observations

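Transcription factors known to control receptor genes of this kind gave a divided picture. Of 18 such genes 15 were tested, and 6 lay above 0 and 9 below, where 49.1% of all genes tested lay below. Their median log2 fold change was -0.10, and none was called over all genes by edgeR, DESeq2 or limma-voom. At an unadjusted p under 0.05 edgeR had 1 of the 15 (6.67%), close to its 5.57% of all genes tested. DESeq2 had 0 and limma-voom 2 (13.3%), against 2.32% and 5.09% of all genes tested. The 1 by edgeR was Maf, a factor of interleukin-17 γδ T cells, at 251 ± 27.3 CPM in Aire-/- against 176 ± 34.1 CPM in Aire+/+ libraries (± SD, n = 2 each), with edgeR's log2 fold change at 0.51 (adjusted p = 0.89). Tox, which sustains PD-1 expression in exhausted T cells, had 226 and 169 counts in the Aire-/- libraries, against 152 and 169 in the Aire+/+ pair (0.45, edgeR adjusted p = 0.91). Irf4 (-0.49) and Lef1 (0.86) followed, with adjusted p of 0.91 for both. Nr4a1, an early target of receptor signalling, had 733 and 878 counts in the Aire-/- libraries, against 1127 and 912 in the Aire+/+ pair (-0.18, edgeR adjusted p = 0.97), named after its values were seen.

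Klrg1, an inhibitory receptor for cadherins that is no member of the 10, had 2 and 5 counts in the Aire-/- libraries, against 30 and 9 in the Aire+/+ pair, below the filter on low counts and named after its values were seen.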
